A study of Mus musculus with 4 samples.

Results

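The genes of the poly(ADP-ribose) polymerase (PARP) family encode the targets of the drug given to these cells, and their own mRNAs were followed here. They were chosen by gene name, as every probe named Parp1, Parp2, Parp3, Parp4, Parp6, Parp8, Parp9, Parp14, Tnks or Tnks2 that was not a control spot. The 10 genes had 13 of the 55681 probes on the array. Of these, 11 probes for 9 genes passed the filter on dim probes, which kept 27043 probes for 20233 genes in all. A probe was kept when PJ34-treated or control RNA gave a signal well above background, as the scanner software judges it, on both arrays of at least 1 genotype.

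The cells were neural stem/progenitor cells (NSPCs) of mouse embryos (Slc:ICR per the labels of all samples, embryonic day 13.5), either wild-type or Trp53-/-, that is, without p53, the DNA damage-responsive transcription factor. They were grown as neurospheres with EGF and FGF-basic. RNA of cells given 20 µM PJ34, a PARP inhibitor, was labelled with Cy5, RNA of untreated cells of the same genotype with Cy3, and both were hybridized to 1 array. Each genotype had 2 arrays, each with RNA prepared on its own. Cy5 was always the PJ34 dye, so that within a genotype the effect of PJ34 and a dye bias of a probe cannot be told apart. Such a bias cancels in the difference between genotypes. The Trp53-/- line goes back to heterozygous mice from a repository, for which the methods give no strain, and the cells had been passaged a few times. The time in PJ34 before this RNA was taken is not given in the sources used here.

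PARP enzymes transfer ADP-ribose from NAD+ to proteins. PARP-1 and PARP-2 sense DNA strand breaks and build poly(ADP-ribose) chains, which recruit repair proteins. The tankyrases, encoded by Tnks and Tnks2, build such chains on partners that they bind through ankyrin repeats, among them axin and the telomere protein TRF1. Most of the other members add single ADP-ribose units. PARP inhibitors act on the proteins, so the mRNA levels below do not measure the activity of the enzymes.

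The probes of the DNA-dependent enzymes Parp1 and Parp2, whose mRNA fell in wild-type NSPCs, and the second probe of Parp6, which is compared with the brighter one below, are shown as the bases that the array carried, in lower case throughout since no part is singled out. The Parp1 probe matches chr1:182530341-182530639 of the mouse build mm9 and the Parp2 probe chr14:51439134-51439365, both on the plus strand. Each of these 60-base probes spans more genome than its own length (299 and 232 bases), so each crosses an exon junction. The Parp6 probe lies at chr9:59489557-59489616 on the plus strand, without a gap.
Parp1 probe: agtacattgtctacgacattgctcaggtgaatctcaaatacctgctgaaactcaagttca
Parp2 probe: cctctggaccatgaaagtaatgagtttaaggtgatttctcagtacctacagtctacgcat
Parp6 second probe: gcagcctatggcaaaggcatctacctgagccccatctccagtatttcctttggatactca

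The promoters of the 3 members that moved are shown next, as the 250 bases before the RefSeq start on GRCm38.p6, for Parp1 at chr1:180568641-180568890, for Parp2 at chr14:50807666-50807915 and for Tnks2 at chr19:36833982-36834231, all on the plus strand. RefSeq entries matched 7 of the 10 members, and none was matched for Parp9, Parp14 and Tnks. Capitals mark GGGCGG, the box bound by SP1, and GCGTG, the core of the xenobiotic response element, on either strand, and no marked match overlapped another.
Parp1 promoter: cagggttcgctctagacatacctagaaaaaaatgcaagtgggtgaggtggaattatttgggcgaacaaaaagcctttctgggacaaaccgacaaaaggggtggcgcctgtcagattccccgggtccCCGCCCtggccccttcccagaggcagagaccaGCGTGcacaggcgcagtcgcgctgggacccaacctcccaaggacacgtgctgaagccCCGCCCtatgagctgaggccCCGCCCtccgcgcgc
Parp2 promoter: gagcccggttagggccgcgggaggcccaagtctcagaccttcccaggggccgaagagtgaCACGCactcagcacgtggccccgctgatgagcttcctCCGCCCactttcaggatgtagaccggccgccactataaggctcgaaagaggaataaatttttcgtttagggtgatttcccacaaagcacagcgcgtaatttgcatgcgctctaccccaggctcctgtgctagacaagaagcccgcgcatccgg
Tnks2 promoter: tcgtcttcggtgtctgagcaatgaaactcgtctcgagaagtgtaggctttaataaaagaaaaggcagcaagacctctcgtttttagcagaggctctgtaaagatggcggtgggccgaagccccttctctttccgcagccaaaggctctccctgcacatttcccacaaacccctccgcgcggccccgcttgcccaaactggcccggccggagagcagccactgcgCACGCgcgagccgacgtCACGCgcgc

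Parp1 held 3 matches to GGGCGG and 1 to GCGTG, Parp2 held 1 of each, and Tnks2 held 0 and 2. Of 32851 promoter windows of the same length, 32.7% held GGGCGG and 28.2% held GCGTG. No window of these 3 genes held a p53 element, counted as 2 half-sites 0 to 13 bases apart, which 0.0639% of all windows held. The G and C content was 61.6% for Parp1, 58.8% for Parp2 and 59.6% for Tnks2, with a median of 52.4% over all windows. The matches describe letters and do not show binding.

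Neural stem/progenitor markers (7 of 7) and neuron markers (5 of 5) were well above background in the control channel of all 4 arrays. Of the 4 microglia markers, Csf1r was above it on all 4 arrays, while Aif1, Cx3cr1 and Ptprc were above it on none. The fibroblast markers Col1a1, Col1a2 and Dcn were above it on none either. Trp53 itself gave control levels of 8.28 and 8.51 (log2) on the wild-type arrays and of 7.56 and 7.82 on the Trp53-/- arrays, well above background on all of them. Its probe therefore did not separate the genotypes by presence and absence, and whether it lies in the deleted part was not tested. Trp53-/- replicate 2 stands apart from the other 3 arrays, since the log2 ratios of PJ34 over control were 4.22 for Eif2s3y and 3.12 for Ddx3y, both Y-linked, against at most 0.84 and 0.18 on the others, and -1.39 for Xist, the X-inactivation RNA of female cells, against -0.05 to 0.53. On that array the sex of the embryos and PJ34 cannot be told apart. On both Trp53-/- arrays the control signals of Eif2s3y and Ddx3y failed the test against background, at levels (log2) of 6.01 and 6.24 for Eif2s3y and of 6.04 and 6.17 for Ddx3y, while the wild-type arrays had 8.96 and 8.47 and 8.25 and 8.06, all above it. In untreated levels, genotype and the sex of the embryos therefore cannot be told apart. Without Trp53-/- replicate 2, Tnks2 was at 0.53 in Trp53-/- NSPCs (limma q 0.026) and no other member measured in both channels passed, with values of -0.17 for Parp1, 0.16 for Parp2, -0.13 for Parp4, -0.14 for Parp6, 0.15 for Parp8, -0.0016 for Parp9 and 0.081 for Tnks. No genotype difference of a member was called without it either, with -0.42 for Parp2 (limma q 0.30) and -0.23 for Parp1 (limma q 0.67). Each array had its own slide and scan, so array, slide and sample cannot be told apart. Where nothing says that cultures were separate, the p-values measure the spread between these samples only.

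Ratios are given as log2 of PJ34 over control, so that 0 is no change and 1 a 2-fold increase. limma was fitted over all kept probes of the 4 arrays, and a gene was called at a Storey q below 0.05 over all kept probes. In wild-type NSPCs, Tnks2 rose, Parp1 and Parp2 fell (with arrays centred on their median, these 2 lay above 0 and below the median of all genes), and 6 of the 9 tested members did not pass the test. The single increase stands against 13.2% of all genes called higher, and the 2 decreases against 10.8% called lower. In Trp53-/- NSPCs, Tnks2 rose, no member fell, and 8 of 9 did not pass, where 12.3% of all genes were called higher and 10.2% lower. No member changed more than 2-fold in either genotype, as 0.494% and 0.361% of all genes did. The median over the 9 members was 0.02 in wild-type and 0.08 in Trp53-/- NSPCs, and that over all genes was 0.03 in both. In RNA of whole cultures, fewer cells of a type and less RNA per cell cannot be told apart.

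**Figure D1:**
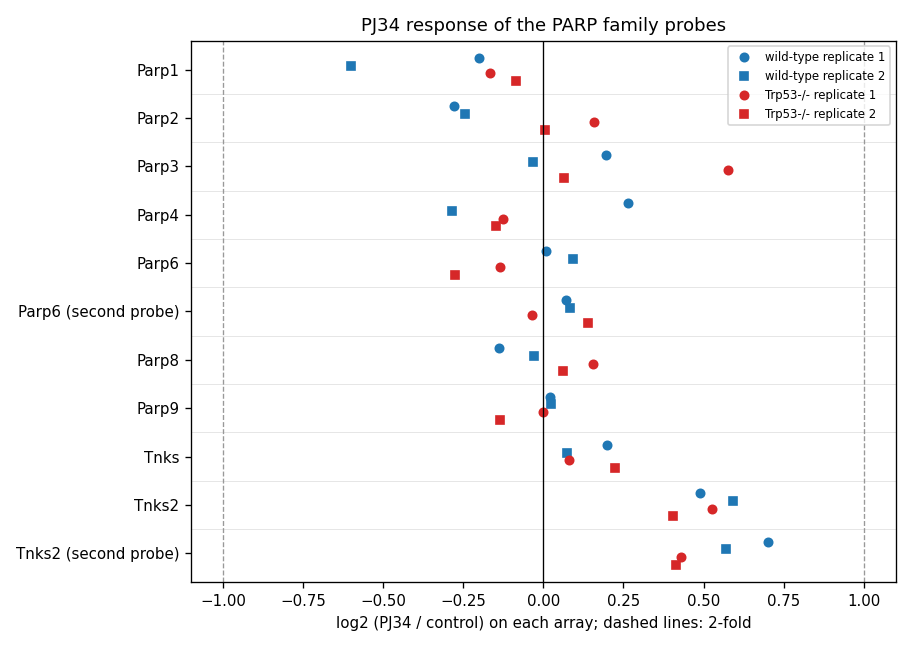
Log2 ratios of PJ34 over control (x axis) of the 11 kept probes of the PARP family (y axis), with 1 point per array, circles for replicate 1 and squares for replicate 2, wild-type in blue and Trp53-/- in red. Both Tnks2 probes lie between 0.40 and 0.70 on every array, and no point reaches the dashed 2-fold lines.

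Parp1 encodes the main enzyme for poly(ADP-ribose) at DNA breaks. Its log2 ratio was -0.20 and -0.60 on the wild-type arrays and -0.17 and -0.09 on the Trp53-/- arrays. All 4 values lay below 0, and wild-type replicate 2 was the lowest by far. The wild-type mean of -0.40 ± 0.28 (SD, n = 2) was a fall to 0.757 of the control signal, with a 95% interval of 0.641 to 0.894. limma gave it a q of 0.016. The call rests on wild-type replicate 2: without that array the value was -0.20 with a q of 0.27. In Trp53-/- NSPCs the mean was -0.13 ± 0.06 (SD, n = 2), and limma gave a q of 0.23. The difference between the genotypes was -0.27, with a 95% interval of -0.61 to 0.07 and a limma q of 0.35.

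Parp2 encodes the enzyme closest to PARP-1. Its log2 ratio was -0.28 and -0.25 in wild-type and 0.16 and 0.01 in Trp53-/- NSPCs, so that the genotypes did not overlap. Of all genes, 23.9% had both wild-type ratios below both Trp53-/- ratios. The wild-type mean of -0.26 ± 0.02 (SD, n = 2) was 0.834 of the control signal and passed with a limma q of 0.040. The call was lost without either wild-type array, with limma q values of 0.21 without replicate 1 and 0.16 without replicate 2. The Trp53-/- mean was 0.08 ± 0.11 (SD, n = 2), with a q of 0.29 in limma. The response was lower in wild-type by -0.34 (95% interval -0.63 to -0.06), with an unadjusted p of 0.023 and a q of 0.19 in limma. It was the only member at an unadjusted p below 0.05 in that difference, and 6.98% of all genes were lower in wild-type by that measure. At q below 0.05 no member passed, against 1.22% of all genes higher and 0.405% lower in wild-type, so a genotype difference was not called for any of the 9.

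Parp3 encodes an enzyme of the response to DNA double-strand breaks. On none of the 4 arrays was its control signal well above background, and the PJ34 signal was above it only on the Trp53-/- arrays. The measured log2 ratios were 0.20 and -0.03 in wild-type and 0.58 and 0.07 in Trp53-/- NSPCs, so that Trp53-/- replicate 1 was far above the rest. With the control of Trp53-/- NSPCs raised to at least the faintest signal called well above background, the PJ34 signal was 1.13-fold higher. That is not a minimum, since other control signals that failed the test lay higher, such as 6.62 for a Macrod2 probe on both Trp53-/- arrays. The measured mean levels in Trp53-/- NSPCs were 6.66 with PJ34 and 6.34 in the control (log2), with a q of 0.055 in limma. The probe passed the filter on dim probes only through the PJ34 channel of these arrays, so that its test there supports no difference. The 1.13-fold value rests on replicate 1, without which the measured ratio was 0.065. It compares the 2 dyes and is open to dye bias. For wild-type NSPCs no such value is given, since the ratios above compare 2 signals of which neither was well above background.

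Tnks2, which encodes tankyrase 2, was the only member called in both genotypes with loess normalization. Its brighter probe (mm9 chr19:36967293-36967352, plus strand) gave 0.49 and 0.59 in wild-type and 0.53 and 0.40 in Trp53-/- NSPCs. The 4 values lay close together, and the genotypes overlapped. The mean was 0.54 ± 0.07 (SD, n = 2) in wild-type, a 1.45-fold rise (95% interval 1.26 to 1.67), with a q of 0.0017 in limma. It was 0.46 ± 0.09 (SD, n = 2) in Trp53-/- NSPCs, a 1.38-fold rise (95% interval 1.20 to 1.59), with a q of 0.0046 in limma. The second probe (mm9 chr19:36965688-36965747) gave 0.70 and 0.57 in wild-type and 0.43 and 0.41 in Trp53-/- NSPCs, with limma q values of 0.000705 and 0.0066. Both probes thus moved the same way on every array. Without Trp53-/- replicate 1 the Trp53-/- value of the brighter probe was 0.40 with a limma q of 0.053, and without replicate 2, the array that stands apart, it was 0.53 and passed. The difference between genotypes was 0.08 with a 95% interval of -0.21 to 0.36.

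Tnks, which encodes the other tankyrase, gave 0.20 and 0.07 in wild-type and 0.08 and 0.22 in Trp53-/- NSPCs. All 4 values were above 0, and neither mean passed (0.14 with a q of 0.18 and 0.15 with a q of 0.15 in limma). Its intervals, 0.953 to 1.27-fold and 0.963 to 1.28-fold, reached up to the lower part of those of Tnks2. The difference between the tankyrase genes was not tested.

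**Figure D2:**
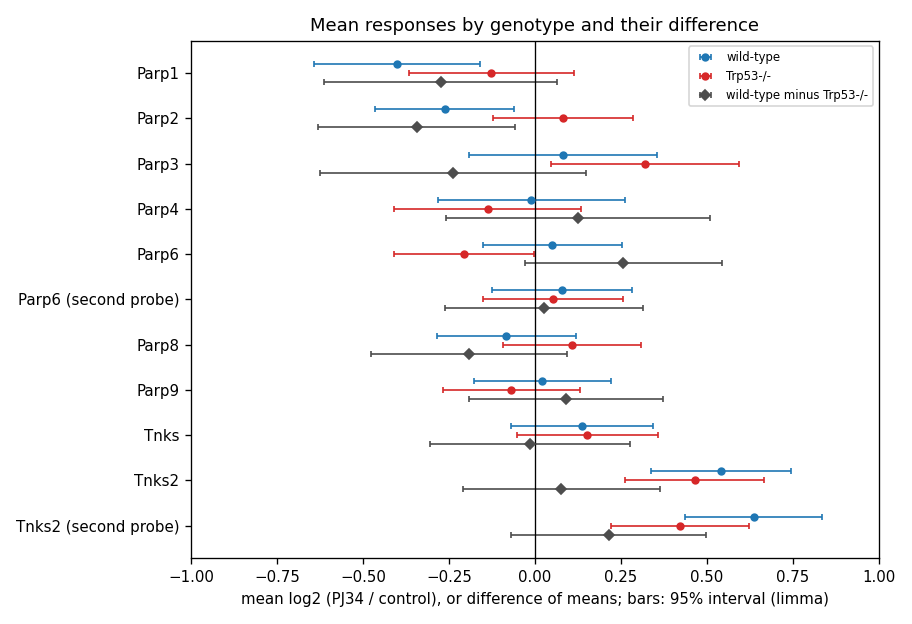
Mean log2 ratio of PJ34 over control in wild-type (blue) and Trp53-/- (red) NSPCs and the wild-type minus Trp53-/- difference (grey diamonds) for the 11 kept probes, with bars for the 95% intervals of limma. The intervals of both Tnks2 probes lie above 0 in both genotypes, and those of Parp1 and Parp2 lie below 0 in wild-type, with loess normalization.

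The remaining members did not pass in either genotype. Parp4, a part of the vault particle, gave 0.26 and -0.29 in wild-type and -0.13 and -0.15 in Trp53-/- NSPCs. The wild-type arrays disagreed in sign. Its second probe was not well above background in any channel. Parp6 gave 0.01 and 0.09 in wild-type and -0.14 and -0.27 in Trp53-/- NSPCs from its brighter probe, with a limma q of 0.39 and 0.080. The second probe, printed above, gave 0.07, 0.08, -0.04 and 0.14, so that the 2 probes differed in sign in the Trp53-/- mean (-0.21 and 0.05). Parp8 gave -0.14 and -0.03 in wild-type and 0.15 and 0.06 in Trp53-/- NSPCs, with no overlap between the genotypes, in the direction that 23.9% of all genes showed. The difference of -0.19 had a limma q of 0.42. Parp9, which pairs with the ubiquitin ligase Dtx3l, stayed between -0.13 and 0.02 on the 4 arrays. Parp14, a macrodomain enzyme linked to interleukin-4 signalling, was not well above background in any of the 8 channels, so no ratio is given.

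Untreated levels were read from the control channel (log2, after quantile normalization between arrays) and can be compared between arrays for 1 probe, but not between probes. No member differed between Trp53-/- and wild-type NSPCs at q below 0.05, at which limma called 3.35% of all genes higher and 3.27% lower in Trp53-/- NSPCs. At an unadjusted p below 0.05, Parp6 was higher and Parp2 and Parp9 were lower in Trp53-/- NSPCs, where 11.0% and 12.7% of all genes were higher and lower.

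Parp2 had levels of 9.58 and 9.30 in wild-type and 8.96 and 8.65 in Trp53-/- NSPCs. The difference was -0.63 (0.646-fold, 95% interval 0.463 to 0.901) with a limma q of 0.083. Parp9 had levels of 7.73 and 7.69 against 6.98 and 7.21, with a difference of -0.61 and a limma q of 0.067. Over 16 other settings, among them leaving out each array, the difference stayed below 0, at -0.79 to -0.48 for Parp2 and -1.01 to -0.50 for Parp9. Without Trp53-/- replicate 1 or 2, limma called 0 of 20233 genes (2281 and 1593 at an unadjusted p below 0.05). For both genes the wild-type arrays lay above the Trp53-/- arrays, as for 29.0% of all genes.

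Parp6 had levels of 9.62 and 10.18 in wild-type and 10.66 and 10.56 in Trp53-/- NSPCs from the brighter probe, with a difference of 0.71 and a limma q of 0.084. Without wild-type replicate 1 or 2, the difference was 0.43 or 0.99. The second probe gave 6.61 and 6.77 against 6.97 and 6.85, a difference of 0.22 with a limma q of 0.28. Both probes were higher on both Trp53-/- arrays, and they differed in size. The groups did not overlap in this direction for 27.1% of all genes.

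Parp1 had levels of 10.68 and 10.78 in wild-type and 11.00 and 10.59 in Trp53-/- NSPCs, which overlapped, with a difference of 0.07 (95% interval -0.41 to 0.55). Tnks2 had 11.53 and 11.23 against 11.45 and 11.60, a difference of 0.14 with a limma q of 0.40. Tnks had 7.77 and 7.42 against 7.95 and 8.05, a difference of 0.40 with a limma q of 0.16. Parp8 had 8.69 and 8.69 against 8.85 and 8.92, with a limma q of 0.30.

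The summed level of the 3 endothelial markers (Pecam1, Cldn5 and Kdr) was 8050 to 8489 in the wild-type and 3170 to 3546 in the Trp53-/- control channels, with Cldn5 not well above background on any of them. The summed level was 7504 to 9876 against 6403 to 6677 for the 5 neuron markers and 1447 to 1784 against 903 to 1077 for the 4 microglia markers. Of these microglia markers, only Csf1r was well above background in the control channels. The neural stem/progenitor sum was 126167 to 162961 against 132253 to 132334, and the astrocyte sum was 1294 to 2926 against 2624 to 2729. Their part in the untreated differences was not tested.

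**Figure D3:**
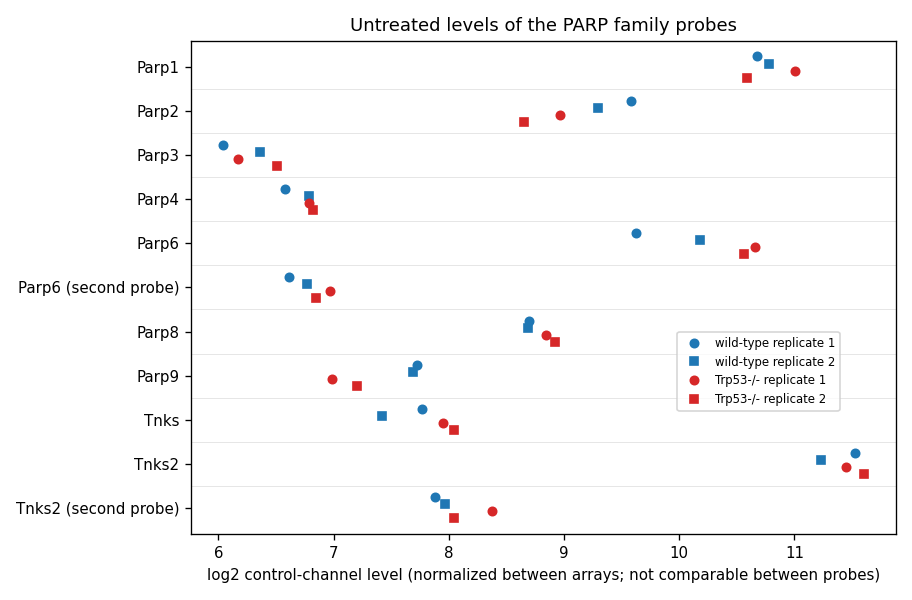
Log2 control-channel level (x axis) of the 11 kept probes on each array, with circles for replicate 1, squares for replicate 2, wild-type in blue and Trp53-/- in red. Parp2 and Parp9 are lower and Parp6 higher on both Trp53-/- arrays, while Parp1 and Tnks2 overlap.

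The related genes came from lists by function, and those named were the genes with the smallest p of each list. With the scanner software's own log ratios in place of loess, 8 of the 10 wild-type calls described below for the named genes were lost (Parp10 and Parp16 passed) and 8 of the 9 Trp53-/- calls (Parp16 passed). Median centring ended 7 of 10 and 4 of 9 of them, among them those of Parp16, Parpbp and Stat2 in both genotypes, and median centring over kept probes ended 4 of 10 (Hpf1, Macrod1, Oard1 and Terf1) and 2 of 9 (Dtx3l and Parp10). Under median centring the wild-type values of Oard1, Macrod1, Hpf1 and Terf1 and the Trp53-/- values of Stat2 and Sh3bp2, all described below as lower, were above 0, at 0.06 to 0.31, and below the median of all genes (0.46 in wild-type and 0.63 in Trp53-/- NSPCs). The 6 other ADP-ribosyltransferases of the family, all tested, held 2 genes that rose and 1 that fell in wild-type and 3 that rose and 1 that fell in Trp53-/- NSPCs. Their medians were 0.10 and 0.20. Of all genes, 13.2% were called higher and 10.8% lower in wild-type, and 12.3% and 10.2% in Trp53-/- NSPCs. These shares also stand beside the calls of the lists below. Parp10, a mono-ADP-ribosyltransferase, gave 0.48, 0.51, 0.24 and 0.32 on wild-type replicates 1 and 2 and Trp53-/- replicates 1 and 2. It passed in both genotypes, with limma q values of 0.0024 and 0.031, and in Trp53-/- NSPCs it lost the call without either array (q 0.11 and 0.28 in limma). Parp16, an enzyme of the endoplasmic reticulum membrane, gave -0.59, -0.47, -0.59 and -0.43, and its means of -0.53 and -0.51 had limma q values of 0.0022 and 0.0034. Tiparp, a target of the aryl hydrocarbon receptor, gave 0.20, 0.30, 0.55 and 0.48, with limma q values of 0.043 and 0.0028, and in wild-type it lost the call without either array (q 0.13 and 0.27 in limma). The antiviral RNA-binding protein gene Zc3hav1 passed in Trp53-/- NSPCs (0.27, limma q 0.047), not in wild-type (0.18, limma q 0.13), and lost the call without either Trp53-/- array (q 0.37 and 0.082 in limma). The genotype difference did not pass for any of the 6.

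Of the 7 genes whose products remove ADP-ribose, Oard1 and Macrod1, both macrodomain hydrolases, fell in wild-type, and none passed in Trp53-/- NSPCs. Among all genes, 10.8% were called lower in wild-type. Oard1 gave -0.43 and -0.29 in wild-type and -0.25 and 0.21 in Trp53-/- NSPCs. Macrod1 gave -0.34 and -0.27 against -0.14 and -0.01. Both calls were lost without either wild-type array, with limma q values between 0.069 and 0.19. Adprhl1 and Adprhl2, hydrolase-family genes, did not pass, and the genotype difference passed for none of the 7. Macrod2, not named by the rule and named after its values were seen, was not called in wild-type from its brightest probe (-0.16, limma q 0.16). Another Macrod2 probe gave -0.50 and -0.32 there, with a limma q of 0.0096. The remaining kept Macrod2 probes were not well above background in wild-type NSPCs. Oard1 had a difference of untreated levels of -0.66 with a limma q of 0.055.

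Of the 11 partners of PARP-1 and PARP-2 and readers of poly(ADP-ribose), 1 rose and 4 fell in wild-type, and 2 rose in Trp53-/- NSPCs. Among all genes, 13.2% were called higher and 10.8% lower in wild-type, and 12.3% higher in Trp53-/- NSPCs. Parpbp, a PARP-1-binding protein that restrains homologous recombination, gave -0.47, -0.53, -0.26 and -0.65 and fell in both genotypes (limma q 0.0057 and 0.0094). In Trp53-/- NSPCs the call was lost without replicate 2, at -0.26 with a limma q of 0.24. Hpf1, which directs PARP-1 and PARP-2 to serine, gave -0.49 and -0.36 in wild-type, with a limma q of 0.010, and was not called without replicate 1. In Trp53-/- NSPCs Hpf1 gave -0.04 and -0.37 (limma q 0.10), and its genotype difference had a limma q of 0.42. The base excision repair polymerase gene Polb rose in wild-type (0.32 and 0.43, limma q 0.010) and was not called without replicate 2. In Trp53-/- NSPCs Polb gave 0.19 and 0.11 (limma q 0.15), and its genotype difference had a limma q of 0.37. Timeless, which protects replication forks, gave -0.05 and -0.11 in wild-type and 0.58 and 0.39 in Trp53-/- NSPCs. It rose in Trp53-/- NSPCs with a limma q of 0.0042, or 0.059 without replicate 1, and the genotype difference of -0.57 had a limma q of 0.061. Among the genes not named by the rule and named here after their values were seen, Lig3 and Chd1l fell in wild-type. Lig3 is read here and below from its brightest probe (-0.54 and -0.14 in wild-type). A second Lig3 probe gave -0.34 and -0.64 there, with a limma q of 0.0046. In Trp53-/- NSPCs the brightest probe of Macroh2a1, also not named by the rule, rose (0.28, limma q 0.034). Another Macroh2a1 probe fell there (-0.80, limma q 4.0e-04). Without Trp53-/- replicate 2 the brightest Macroh2a1 probe had a limma q of 0.26. Without wild-type replicate 1 the limma q was 0.39 for Lig3 and 0.13 for Chd1l.

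Of the 9 tankyrase substrates and partners, Terf1, which encodes TRF1, fell in wild-type and Sh3bp2, an adaptor protein gene, fell in Trp53-/- NSPCs. Among all genes, 10.8% were called lower in wild-type and 10.2% in Trp53-/- NSPCs. Terf1 gave -0.57 and -0.13 in wild-type, and without replicate 1 its limma q was 0.40. Sh3bp2 gave -0.12 and -0.57 in Trp53-/- NSPCs, and without replicate 2, the array that stands apart, its limma q was 0.50. Axin1 gave -0.11 and -0.20 in wild-type and 0.14 and 0.15 in Trp53-/- NSPCs and passed in neither, nor did Lnpep. The median was -0.15 in wild-type and -0.00037 in Trp53-/- NSPCs.

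Both vault genes, Mvp and Tep1, were too dim to be tested. Of the interferon-related genes, 5 passed the filter on dim probes and were tested. Stat2, a subunit of the interferon-activated factor ISGF3, gave -0.76, -0.34, -0.32 and -0.46 and fell in both genotypes (limma q 0.0045 and 0.022). Without wild-type replicate 1 or Trp53-/- replicate 2 those limma q values were 0.10 and 0.20. Dtx3l, the partner of Parp9, gave 0.20 and 0.05 in wild-type and 0.20 and 0.52 in Trp53-/- NSPCs. It rose in Trp53-/- NSPCs (limma q 0.021), but without Trp53-/- replicate 2 the value was 0.20 with a limma q of 0.35. Irf9 and Bst2 passed in neither genotype.

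**Figure D4:**
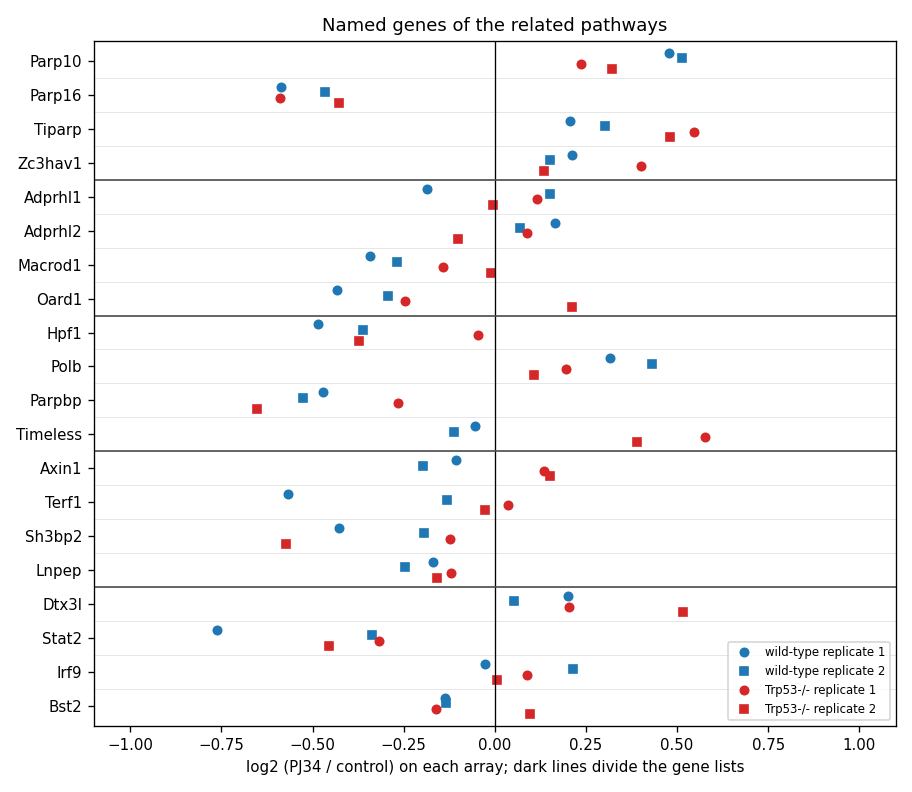
Log2 ratios of PJ34 over control (x axis) of the 20 named genes from the related lists on each array (circles replicate 1, squares replicate 2, wild-type blue, Trp53-/- red), with dark lines between lists: other family members, ADP-ribose removal, partners of PARP-1 and PARP-2, tankyrase partners and interferon-related genes. Parp16, Parpbp and Stat2 lie below 0 and Parp10 and Tiparp above 0 on all 4 arrays.

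The genes whose 4 ratios lay nearest to those of Parp1 were Fads1, at a Euclidean distance of 0.06 (log2), and Hnrnpd and Psmd3, both at 0.10. Fads1 gave -0.21 and -0.62 in wild-type and -0.13 and -0.13 in Trp53-/- NSPCs.

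How each array was centred changed the sign of the smaller responses. With each array centred on the median of all its probes in place of loess, the median of all genes lay at 0.27 and 0.65 on the wild-type and at 0.65 and 0.60 on the Trp53-/- arrays. Of the 9 tested members, 5 were then called higher and 0 lower in wild-type, and 6 and 0 in Trp53-/- NSPCs. Of all 20233 genes, 12084 were called higher and 92 lower in wild-type, and 13783 and 90 in Trp53-/- NSPCs. Under that setting Parp1 and Parp2 had wild-type values of 0.22 and 0.30, which lay -0.24 and -0.16 from the median of all genes. Tnks2 had 1.19 in wild-type and 1.36 in Trp53-/- NSPCs, which lay 0.73 and 0.74 above that median. Relative to the median of all genes, the Tnks2 means were thus higher and the wild-type means of Parp1 and Parp2 lower under both settings. These distances from the median were not tested. With median centring over kept probes, the wild-type values of Parp1 and Parp2 were below 0 and neither passed, as given further below. With the scanner software's own log ratios, the wild-type values of Parp1 and Parp2 were -0.47 and -0.34, both with a limma q of 0.084.

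**Figure D5:**
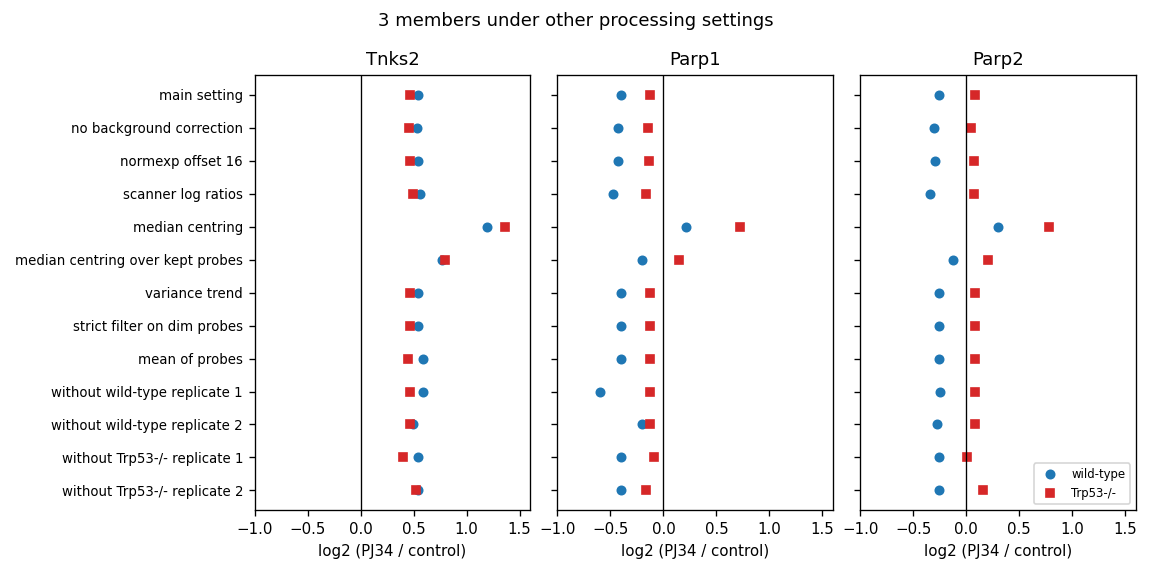
Mean log2 ratio of PJ34 over control (x axis) of Tnks2, Parp1 and Parp2 under 13 settings (y axis), wild-type as blue circles and Trp53-/- as red squares. Tnks2 stays above 0 in every row, while Parp1 and Parp2 in wild-type turn from below to above 0 under median centring, where the median of all genes is above 0 too.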

How the data were processed

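The deposited intensity values, uncorrected spot means and local background medians in Cy5 and Cy3, were extracted with Feature Extraction 10.7.3.1 per the labels. Its deposited log10 ratios, already corrected and dye-normalized, were turned to log2 and tried as an alternative. The 4 numbered columns of a series-wide table matched no sample by name and were not used here. Background was corrected with limma 3.58.1 (R 4.3.3; normexp, offset 50), the ratios were normalized by loess within arrays, and control and outlier spots were left out. Per channel, 21515 to 27166 probes were well above background and no spot was saturated; the number of arrays sets the precision. A gene was read from its brightest kept probe. The limma model had 1 mean per genotype and all 4 arrays (10.4 degrees of freedom after moderation for ratios, 6.17 for levels). Control levels were quantile-normalized between arrays (Aquantile). The fit was tested on simulated data with the spread of the ratios, in which 200 of 27043 probes were changed. The spread of the ratios was used for the simulated untreated levels too. Of 50 changes of log2 size 0.5, 5 were recovered in wild-type, 0 in Trp53-/-, 1 in the difference and 0 in untreated levels. Of 50 changes of log2 size 2, the numbers were 47, 45, 36 and 41. In the data, 24% of all genes were called in wild-type and 22.5% in Trp53-/- NSPCs, far above the simulated share. The q of a change depends on that share, so these numbers do not give the recovery in the real fit. A member that did not pass may still have changed by a small amount. For a bound, the mean of the brighter channel was divided by that of the dim one, raised on each array to at least the faintest signal called well above background. Named were all members and, per related list, up to 4 genes with the smallest p in any test, Trp53, and the 3 genes nearest to Parp1. The members and lists were chosen with earlier results of these data known. Probe positions (mm9) are those of the files, and no annotation of that build was used. Adprs was matched through a RefSeq synonym to Adprhl2. Alternatives were other background corrections, centrings, filters, adjustments and samples in the fit, and leaving out each array; median centring over kept probes and a crossed pairing were chosen after seeing the data. Some results of the related lists and markers are not reported here. Slide could not be used as a block, since each array had its own.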

Additional observations from a re-analysis of the deposited data

How the results depend on the processing

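Tnks2 was called higher in wild-type NSPCs under every setting run (0.49 to 1.19), and in Trp53-/- NSPCs under all but the scanner log ratios (0.49, limma q 0.058) and without Trp53-/- replicate 1. In wild-type NSPCs the number of members called lower, 2, was 1 (Parp1) with an offset of 16, no filter or Benjamini-Hochberg adjustment, 1 with median centring over kept probes (Parp3, whose wild-type signals were not well above background; Parp1 and Parp2 were at -0.20 and -0.12 with limma q values of 0.068 and 0.15), and 0 with the scanner log ratios or median centring; median centring called 5 higher. In Trp53-/- NSPCs 0 were higher with the scanner log ratios, 6 with median centring, 2 at unadjusted p and 2 when the genotype was fitted alone; 2 were lower with median centring over kept probes and 1 at unadjusted p. Median centring called 12084 of all 20233 genes higher in wild-type and 13783 in Trp53-/- NSPCs. In the response difference 1 member was lower at unadjusted p, as were 6.98% of all genes. For untreated levels, median centring of the control channel gave 1 higher and 1 lower, and unadjusted p gave 1 and 2. Leaving out each array gave 1 to 1 higher and 0 to 2 lower in wild-type, 0 to 2 higher and 0 to 0 lower in Trp53-/-, 0 to 0 in either direction of the difference, and 0 to 2 higher and 0 to 2 lower in untreated levels.

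Signs turned as follows, and the cause was not tested beyond the shift of the median of all genes given above. Median centring gave, in wild-type, Parp1 0.22, Parp2 0.30, Parp4 0.11, Parp8 0.43, Oard1 0.25, Macrod1 0.26, Hpf1 0.31 and Terf1 0.20, and in Trp53-/- Parp1 0.72, Parp4 0.022, Parp6 0.63, Parp9 0.24, Stat2 0.25 and Sh3bp2 0.060. Median centring over kept probes gave, in wild-type, Parp3 -0.41 (of signals not well above background), Parp8 0.012 and Parp9 -0.0065, and in Trp53-/- Parp1 0.15, Parp3 -0.22 and Parp6 0.056. The scanner log ratios gave Parp6 -0.0074 and Parp9 -0.010 in wild-type. The Tnks2 difference was -0.18 with median centring and -0.023 over kept probes. Leaving out each array in turn gave, in wild-type, values of -0.031 to 0.20 for Parp3 and -0.29 to 0.26 for Parp4; in the difference, -0.49 to 0.017 for Parp3, -0.15 to 0.40 for Parp4 and -0.086 to 0.055 for Tnks; and in untreated levels, -0.14 to 0.27 for Parp1, -0.035 to 0.31 for Parp3 and -0.0052 to 0.29 for Tnks2. Median centring of the control channel gave untreated differences of -0.055 for Parp3 and -0.082 for Parp4.

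Over all genes, 2671 were called higher and 2188 lower in wild-type, against 848 and 643 with the scanner log ratios and 12084 and 92 with median centring; in Trp53-/- the counts were 2489 and 2059, against 402 and 224, and 13783 and 90. The difference had 247 higher and 82 lower, against 0 and 0 with the scanner log ratios (964 and 1196 at an unadjusted limma p below 0.05) and 36 and 2 with median centring. The untreated calls, 678 and 661, were 0 and 0 without either Trp53-/- array and at most 4571 and 4586 without a wild-type array. The replicate numbers did not pair the samples (correlation of deviations -0.17 for ratios and 0.07 for control levels): with the replicate block the member counts of the difference stayed at 0 and 0, the untreated count was 1 higher (Parp6) and 0 lower, and all genes gave 1177 and 1491. With crossed pairing, chosen after seeing the data, 636 and 352 genes were called in the difference. Members near background (Parp3, Parp4, Parp14) are limited by signal.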

Other observations

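Several related genes had more than 1 kept probe, and these did not always move together. A further Macroh2a1 probe, whose gene encodes a histone variant that binds ADP-ribose, gave -0.14 in wild-type and -0.80 in Trp53-/- NSPCs (limma q 4.0e-04), while its brightest probe gave 0.03 and 0.28 and another gave -0.14 and 0.18. For that further probe the genotype difference was 0.66 (limma q 0.031). Its untreated level was higher in Trp53-/- NSPCs by 0.80 (limma q 0.038), where genotype and the sex of the embryos cannot be told apart. Its PJ34 levels (log2) were 6.38 and 6.44 in wild-type and 6.54 and 6.56 in Trp53-/- NSPCs. The second probe of Timeless gave -0.06 and 0.49 and that of Tiparp 0.51 and 0.63, in the direction of their brighter probes in both genotypes. For Zc3hav1 the second probe gave -0.23 in wild-type and 0.10 in Trp53-/- NSPCs, against 0.18 and 0.27 for the brighter one.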
